A study of Mus musculus with 7 samples.

Results

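The small nucleolar RNAs and the other structural short RNAs of the cell were examined in sorted neurons of the embryonic mouse arcuate nucleus. Members were the rows of the deposited table whose gene symbol starts with Snora, Snord, Scarna, or with Rnu or Rny and a digit, together with Rpph1, Rmrp, Terc and Rn7sk. The rule itself uses gene symbols only. The rule found 121 members among 18335 rows. They comprised 70 C/D box RNAs (Snord), 35 H/ACA box RNAs (Snora), 9 small Cajal body RNAs (Scarna), 4 genes with an Rnu symbol, the RNA subunits of RNase P (Rpph1) and RNase MRP (Rmrp), and telomerase RNA (Terc). Rn7sk and the Y RNAs were not analysed here. Of the members, 120 were matched by symbol to GENCODE M21 on GRCm38, the assembly also called mm10, and their annotated lengths ran between 64 and 423 bases.

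Pomc neurons, which make the precursor of appetite-suppressing peptides, were compared with Npy neurons, which make the appetite-stimulating neuropeptide Y. Both were purified by fluorescence-activated sorting from arcuate nuclei dissected from E15.5 embryos, with 4 Pomc libraries and 3 deposited Npy columns, each library prepared from 1 ng of total RNA with a stranded total RNA kit (SMARTer). For strain, sort reporter and animals per library the sources used here give nothing. Replicates are not said to be separate animals, and the spread behind every p-value may therefore be technical spread. The column of Npy replicate 3 equals the mean of Npy replicates 1 and 2 multiplied by a whole percent from 95 to 105 in all 112 members with a value, so it holds no measurement of its own and was left out. The deposited table gives no unit. All values below were taken as TPM, a level scaled by gene length and to a total of 1000000 per library.

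Structural short RNAs work as guides or as the catalytic core of ribonucleoprotein enzymes. C/D box RNAs guide the methylation of the ribose in ribosomal RNA and H/ACA box RNAs guide the change of uridine to pseudouridine. Small Cajal body RNAs do both for the spliceosomal RNAs. Most are cut out of introns of host genes, many of which encode ribosomal proteins or are non-coding Snhg genes. RNase P trims the 5′ end of transfer RNA precursors, and its relative RNase MRP takes part in ribosomal RNA processing. In neurons the best known members are those of the imprinted Prader-Willi region.

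The sequences that define the 2 guide classes are shown for the members to which the results below return. In the C/D box RNAs the capitals mark TGATGA in the first 25 bases and the last CTGA in the last 25 bases, the cores of boxes C and D. Only the RNA strand was searched. Snord15b (chr7:99479563-99479707, minus strand) and Snord15a (chr7:99482785-99482932, minus strand) share the host Rps3, and Snord65 (chr11:62604515-62604586, plus strand) had the largest difference below among members with a value in both groups.
Snord15b: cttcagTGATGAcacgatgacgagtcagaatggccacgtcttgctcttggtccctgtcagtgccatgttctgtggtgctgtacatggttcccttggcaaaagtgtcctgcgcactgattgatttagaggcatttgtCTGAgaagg
Snord15a: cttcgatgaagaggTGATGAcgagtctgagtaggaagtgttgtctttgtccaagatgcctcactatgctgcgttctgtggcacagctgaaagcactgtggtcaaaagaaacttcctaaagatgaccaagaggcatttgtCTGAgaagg
Snord65: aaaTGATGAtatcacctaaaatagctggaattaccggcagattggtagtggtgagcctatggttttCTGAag
Both motifs were found in 42 of 69 C/D box members with a sequence (60.9%), CTGA alone or with TGATGA in 68, and both motifs in 0 of 35 H/ACA box members. In the H/ACA box RNAs the capitals mark ACA with exactly 3 bases after it. Snora31 (chr14:75847905-75848034, plus strand) and Snora5c (chr11:6620319-6620454, minus strand) are shown because they are the members that stood higher in every Pomc library, and Snora24 (chr3:123507937-123508066, minus strand) because its level followed that of its host.
Snora31: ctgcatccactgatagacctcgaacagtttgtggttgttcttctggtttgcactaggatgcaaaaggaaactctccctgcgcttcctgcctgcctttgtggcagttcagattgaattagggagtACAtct
Snora5c: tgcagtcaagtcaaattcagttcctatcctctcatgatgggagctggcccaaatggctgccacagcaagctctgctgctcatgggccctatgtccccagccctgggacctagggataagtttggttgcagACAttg
Snora24: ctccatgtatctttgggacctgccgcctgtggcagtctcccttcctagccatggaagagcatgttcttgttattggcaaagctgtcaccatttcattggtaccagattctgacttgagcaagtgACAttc
ACA at this place was found in 29 of 35 H/ACA box members (82.9%) and in 0 of 69 C/D box members. Among the 9 small Cajal body RNAs, 4 held both C/D motifs and 2 held the ACA. Scarna13 (chr12:105031075-105031349, minus strand) is one with the ACA, and Scarna9 (chr9:15326264-15326333, minus strand), which holds both C/D motifs, came closest to the test's threshold. The capitals mark ACA in Scarna13 and the C/D motifs in Scarna9.
Scarna13: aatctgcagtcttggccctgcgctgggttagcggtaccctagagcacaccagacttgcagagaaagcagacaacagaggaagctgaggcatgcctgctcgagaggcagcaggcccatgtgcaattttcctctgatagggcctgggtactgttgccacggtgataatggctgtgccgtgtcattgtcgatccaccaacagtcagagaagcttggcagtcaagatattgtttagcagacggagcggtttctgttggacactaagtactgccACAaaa
Scarna9: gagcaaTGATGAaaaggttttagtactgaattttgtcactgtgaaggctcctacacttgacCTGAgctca
Sequences are those of the GENCODE M21 transcripts. A match is a description of these letters and not evidence of a working box.

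As a whole the members took a smaller part of the Pomc libraries than of the Npy libraries. Their summed TPM came to 7.79%, 9.14%, 9.69% and 9.14% of the total in Pomc replicates 1 to 4, against 10.9% and 13.6% in Npy replicates 1 and 2. Both Npy libraries lay above all 4 Pomc libraries. The means were 8.94 ± 0.807% in Pomc (SD, n = 4) and 12.2% in Npy (n = 2), a ratio of 0.731 (two-sided exact permutation test, p = 0.0667). That is the smallest p that the 15 possible splits of 4 against 2 libraries allow, so the design cannot reach 0.05. In bulk samples fewer cells of a type and less RNA per cell cannot be told apart. Rpph1 alone made up 64.5% of the members' summed TPM in Pomc and 64.1% in Npy. Without it the share was 2.43%, 2.96%, 3.26% and 4.04% in Pomc, against 3.78% and 4.99% in Npy, and the groups overlapped through Pomc replicate 4 (exact permutation p = 0.2). The ratio of the means was then 0.723, close to that of all members. With TPM weighted by GENCODE exon length, an alternative added after the data were seen, the members came to 0.516 to 0.584% in Pomc, against 0.666% and 0.934% in Npy. Weighted in this way and without Rpph1, they came to 0.1295%, 0.131%, 0.147% and 0.178% in Pomc, against 0.179% and 0.261% in Npy, and the groups did not overlap (exact permutation p = 0.0667).

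**Figure D1:**
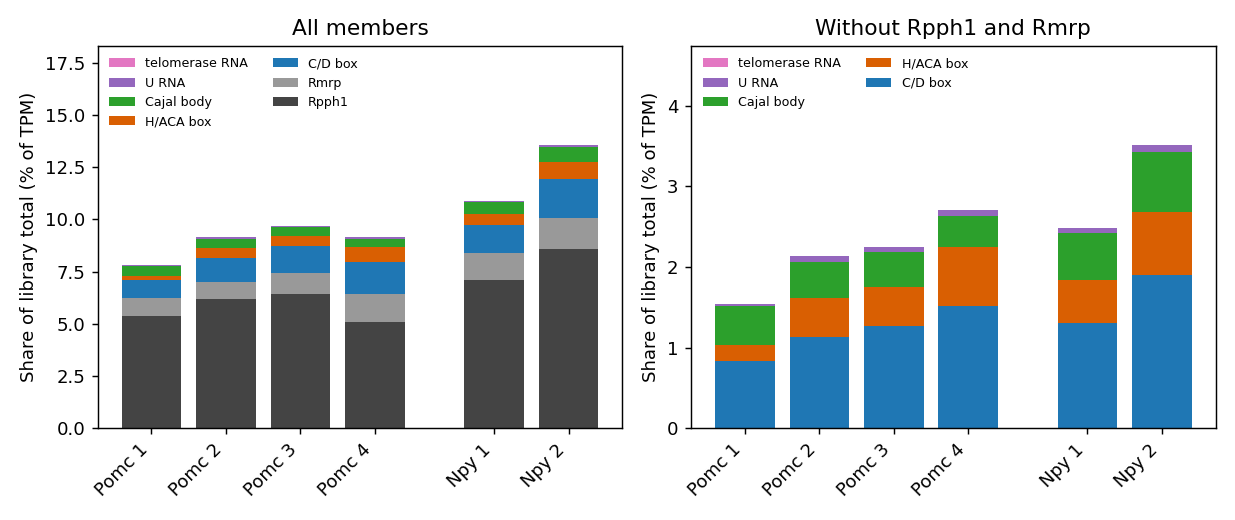
Share of the library total (percent of summed TPM) taken by each class of members in the 4 Pomc libraries and, to their right, the 2 Npy libraries, for all members (left) and without Rpph1 and Rmrp (right). Rpph1 fills most of every left-hand bar, and both Npy bars stand above the Pomc bars there, while Pomc replicate 4 stands above Npy replicate 1 on the right.

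Every class had a lower mean share in Pomc, while overlap of the groups differed. The ratio of the means was 0.658 in small Cajal body RNAs, 0.727 in H/ACA box RNAs and 0.740 in C/D box RNAs. It was 0.735 in the class of Rpph1 and Rmrp, 0.823 in Rnu genes and 0.422 in telomerase RNA. Whether the classes differed from one another was not tested. The class of Rpph1 and Rmrp did not overlap between groups (exact permutation p = 0.0667, adjusted over 6 classes p = 0.2). Small Cajal body RNAs took 0.481%, 0.442%, 0.440% and 0.385% in Pomc, against 0.586% and 0.743% in Npy. These groups did not overlap (exact permutation p = 0.0667, adjusted over 6 classes p = 0.2). Scarna10, the most abundant of them, averaged 2178 TPM in Pomc and 3738 TPM in Npy, and so weighs heavily in this class. Scarna2, the next most abundant, had overlapping groups. The class share was not computed without Scarna10, so its lack of overlap may rest on this single gene. C/D box RNAs took 0.831%, 1.13%, 1.27% and 1.52% in Pomc, against 1.31% and 1.90% in Npy, so the groups overlapped (exact permutation p = 0.2, adjusted 0.4). H/ACA box RNAs took 0.204%, 0.485%, 0.475% and 0.730% in Pomc, against 0.525% and 0.778% in Npy (exact permutation p = 0.333, adjusted 0.48), so the groups overlapped. The 4 genes with an Rnu symbol took 0.0265 to 0.0777% in Pomc, against 0.0554% and 0.0878% in Npy (exact permutation p = 0.6). MicroRNA genes, a separate class of short RNA genes with 566 rows, took 1.56%, 2.33%, 2.30% and 2.09% in Pomc, against 2.09% and 2.08% in Npy, with a difference of -0.01 percentage points (exact permutation p = 1).

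Gene by gene, no member passed the threshold. Of the 121 members, 111 reached 1 TPM in at least 2 libraries and were tested with limma on log2(TPM + 1), a scale that understates differences of low genes. At a Benjamini-Hochberg adjusted p of 0.05 over 13845 genes, 0 of 111 tested members were called, against 0.412% of all tested genes (0.123% higher in Npy and 0.289% higher in Pomc). The lowest adjusted p among the members was 0.0707, for Scarna9. At an unadjusted limma p of 0.05, 17 members passed, 15.3% of those tested, against 7.36% of all genes. Higher values in Npy accounted for 12 of them (10.8%, against 3.28% of all genes), and higher values in Pomc for 5 (against 4.08% of all genes). The 17 became 33 without Pomc replicate 4 (29 higher in Npy) and 8 with 1 prior variance for all genes (6 higher in Npy). The share of all genes at that p was not computed for these fits, so the changed counts have no background. Without Npy replicate 2 the median log2 fold change of the members was -0.36, against -0.57 in the fit used. The groups did not overlap in 13 tested members, against 15.9% of all genes. The 2 Npy libraries lay above every Pomc library in 11 tested members (9.91%, against 7.86% of all genes), and every Pomc library lay above both Npy libraries in 2 (1.80%, against 8.05%). Groups that do not overlap were therefore near the background in the Npy direction and below it in the Pomc direction.

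**Figure D2:**
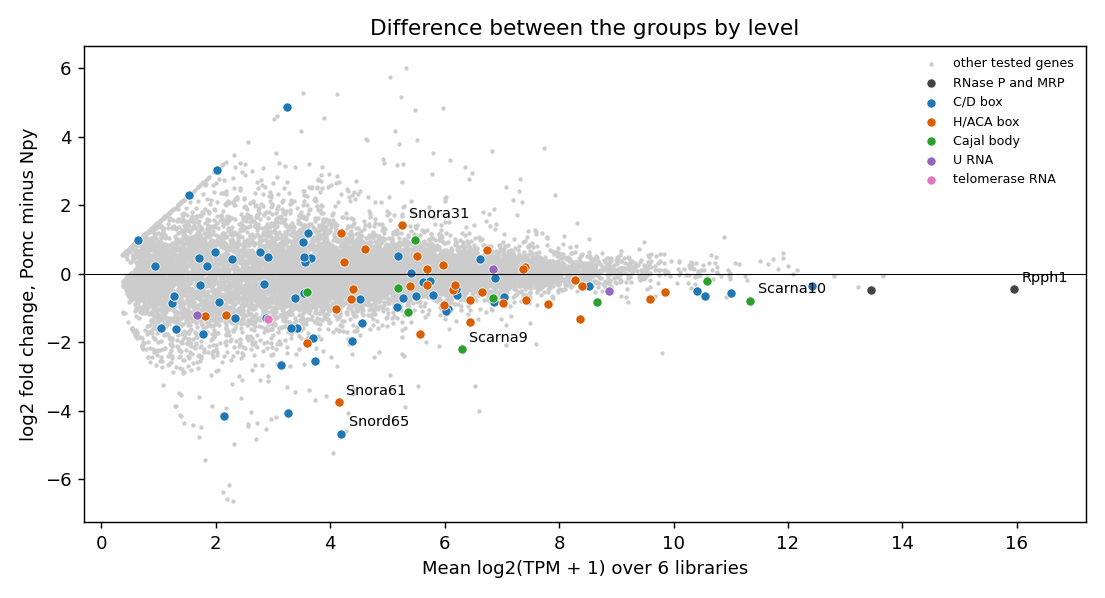
Log2 fold change, Pomc minus Npy, against the mean log2(TPM + 1) over 6 libraries, for all tested genes (grey) and for the tested members by class (colours). Of the 111 members 80 lie below the zero line, and Rpph1 is the point farthest to the right.

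The direction was more uniform than the calls. Log2 fold changes were below 0 in 80 of 111 members (72.1%), against 48.7% of all tested genes. A value below 0 means a lower Pomc mean of log2(TPM + 1), which need not be a lower mean TPM. Snord49b, for one, was below 0 with the higher mean TPM in Pomc (67.7, against 54.5 in Npy). The median over the tested members was -0.57, against 0.02 over all genes. The filter passed 4 members through their Pomc values only and none through Npy values only, and these 4 stood at 0 in both Npy libraries. In the 107 others the median was -0.63. By class the median log2 fold change was -0.50 in H/ACA box RNAs (24 of 34 below 0), -0.63 in C/D box RNAs (43 of 62) and -0.70 in small Cajal body RNAs (8 of 9). Among the 33 members that averaged at least 100 TPM, 28 had the higher mean in Npy. Members share libraries, hosts and, in part, sequence, so they are not independent of each other. Marker levels of other cell types differed between the same libraries. All 6 oligodendrocyte precursor markers listed passed the test as higher in Npy, with summed levels of 0.444 to 2.64 TPM in Pomc, against 228 and 207 TPM in Npy. The 4 markers of dividing cells summed to 1.79 to 22.8 TPM in Pomc, against 83.4 and 27.5 TPM in Npy, and none of them passed. The 8 pan-neuronal markers summed to 4789 to 5492 TPM in Pomc, against 4159 and 3386 TPM in Npy, with 0 of 8 called. Of these, 2 (Snap25 and Syt1) had log2 fold changes below 0. The part of other cell types in the members' levels was not tested. The 2 genes that name the groups followed the labels. Pomc stood at 352 to 770 TPM in the Pomc libraries, against 24.03 and 59.4 TPM in the Npy libraries. Npy stood at 2.11 to 152 TPM, against 728 and 513 TPM, and was not called (limma adjusted p = 0.418). Agrp, the other listed Npy neuron marker, had 0 to 6.82 TPM in Pomc, against 5.53 and 1.75 TPM in Npy (limma adjusted p = 0.927).

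RNase P RNA was the most abundant member in every library. Rpph1 stood at 53632, 61805, 64264 and 51071 TPM in Pomc replicates 1 to 4, against 71066 and 85712 TPM in Npy replicates 1 and 2. Both Npy values were above all Pomc values, and the means differed by a ratio of 0.736 (exact permutation p = 0.0667). In limma the log2 fold change was -0.44 ± 0.70 (SE), with an adjusted p of 0.919 and 0.808 with 1 prior variance for all genes. That SE is drawn towards a prior variance that follows mean expression. It and the limma p therefore do not measure the spread of Rpph1's own values alone. Rpph1 (chr14:50807449-50807767, minus strand) lies in no host by the annotation. Its 319 bases hold a direct repeat of 21 bases at positions 182 to 202 and 203 to 223, marked by capitals in the stretch from position 161 to 260 (chr14:50807508-50807607).
Rpph1: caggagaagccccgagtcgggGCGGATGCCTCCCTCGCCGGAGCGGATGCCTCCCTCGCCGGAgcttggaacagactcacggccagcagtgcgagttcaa
A short read that lies wholly inside the repeat can align at both places of the same RNA. The 5 genes outside the members whose log2(TPM + 1) followed Rpph1 most closely over the 6 libraries were Srf, Aup1, Tmem175, Clns1a and Agpat3, with Pearson r from 0.975 to 0.99. They are the top of 11146 genes compared over the same 6 libraries, so this is a description of the order and carries no test.

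Rmrp, the RNase MRP RNA, was second with 8882, 8220, 10151 and 13333 TPM in Pomc, against 13039 and 14793 TPM in Npy. Pomc replicate 4 reached into the Npy range (log2 fold change -0.48 ± 0.36, SE, limma adjusted p = 0.835). Of 11 tested genes for proteins of RNase P and MRP, 0 passed in either direction, 3 had a log2 fold change below 0 and the median was 0.35. In 4 of them (Pop1, Pop7, Rpp14 and Rpp25l), every Pomc library was above both Npy libraries, which held for 8.05% of all tested genes. Pop7 had 30.02, 54.5, 20.96 and 41.1 TPM in Pomc, against 15.6 and 2.16 TPM in Npy (log2 2.29 ± 0.66, SE, limma adjusted p = 0.357, unadjusted 0.00691). Rpp25l had 7.58, 32.1, 19.2 and 11.2 TPM in Pomc, against 6.08 and 2.61 TPM in Npy (log2 1.69 ± 0.67, SE, limma adjusted p = 0.607, unadjusted 0.0315). These genes were picked after their values were seen.

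Among the C/D box RNAs, a pair within the ribosomal protein gene Rps3 stood out by level, Snord15b overlapping an exon and Snord15a in an intron. Snord15b had 3813, 5122, 5713 and 5850 TPM in Pomc, against 5512 and 7641 TPM in Npy. Snord15a had 973, 1145, 1617 and 1187 TPM in Pomc, against 1548 and 1927 TPM in Npy. In both, at least 1 Pomc library reached into the Npy range (log2 fold changes -0.36 ± 0.30 and -0.51 ± 0.24, SE, limma adjusted p = 0.852 and 0.701). Their host Rps3 ran the other way in mean, with 328, 272, 267 and 241 TPM in Pomc, against 177 and 257 TPM in Npy (log2 0.37, limma adjusted p = 0.791). Snord22, known from Xenopus oocytes as U22, which is needed to make 18S ribosomal RNA, had 1357, 1356, 1856 and 3086 TPM in Pomc, against 2248 and 3169 TPM in Npy (log2 -0.57, adjusted p = 0.802 in limma). Snord17, in an intron of Snx5, was the abundant C/D box RNA whose groups did not overlap. It had 1035, 1357, 1341 and 1483 TPM in Pomc, against 1622 and 2572 TPM in Npy (log2 -0.66 ± 0.25, SE, limma adjusted p = 0.568).

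**Figure D3:**
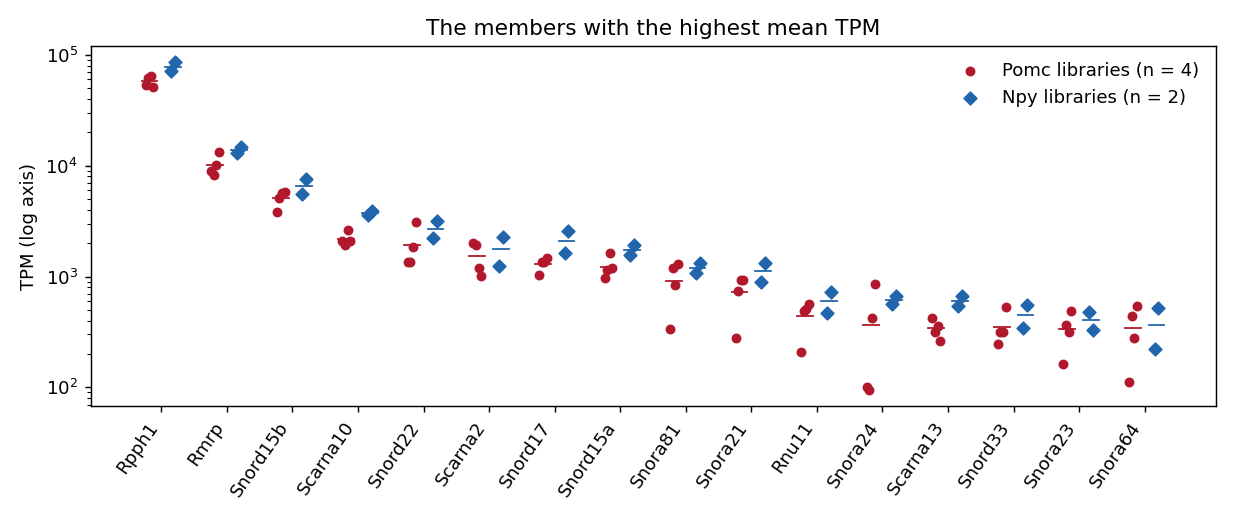
TPM on a log axis for the members with the highest mean, in 4 Pomc libraries (red circles, left of each name) and 2 Npy libraries (blue diamonds, right), with short lines at the group means. Rpph1, Scarna10, Snord17 and Scarna13 show both Npy values above all Pomc values, and single low Pomc values stand apart in the H/ACA box RNAs Snora81 and Snora21.

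Several C/D box RNAs at low levels had large differences between the group means. Snord65 had 10.04, 8.42, 13.4 and 0 TPM in Pomc, against 76.5 and 322 TPM in Npy. Both Npy values were above all Pomc values, and the log2 fold change of -4.67 ± 1.04 (SE) had a limma adjusted p of 0.169. It passed without Pomc replicate 4, the library listed at 0 (adjusted p = 0.0387). Snord42b was listed at 0 in Pomc replicates 1, 3 and 4 and at 6.98 TPM in Pomc replicate 2, against 65.8 and 12.5 TPM in Npy (limma adjusted p = 0.265). Snord96a had 2.48, 54.8, 0 and 0 TPM in Pomc, against 59.8 and 64.1 TPM in Npy, so that Pomc replicate 2 lay close to the Npy libraries (limma adjusted p = 0.546, and 0.0444 without that library). Snord35a had 22.9, 22.6, 35.2 and 32.5 TPM in Pomc, against 37.0 and 82.4 TPM in Npy (log2 -0.97 ± 0.39, SE, limma adjusted p = 0.61). Snord69 went the opposite way. It was listed at 0 in both Npy libraries and in Pomc replicate 1, and had 115, 33.7 and 184 TPM in Pomc replicates 2 to 4 (limma adjusted p = 0.559, and 0.0159 without Pomc replicate 1). Of the fits that left out a single Pomc library, Snord65, Snord96a and Snord69 each passed only in the fit given here. Snord69 was picked after its values were seen, and a 0 in this table means only that the gene is listed at 0. Zeros were common, since 44 of the 121 members had at least one. Snord1a and Snord52 were listed at 0 in all 6 libraries.

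Several abundant H/ACA box RNAs differed widely between libraries of 1 group. Snora81 in the translation factor gene Eif4a2 had 333, 1204, 837 and 1294 TPM in Pomc, against 1066 and 1313 TPM in Npy (log2 -0.54, limma adjusted p = 0.855). Snora21 in an intron of Rpl23 had 276, 735, 939 and 936 TPM in Pomc, against 902 and 1319 TPM in Npy (log2 -0.75, limma adjusted p = 0.80). In both, Pomc replicate 1 was far below the other 5 libraries, which lay together. Snora3 was the only H/ACA box RNA with both Npy libraries above Pomc, with 8.48, 53.6, 55.5 and 32.1 TPM in Pomc, against 85.7 and 131 TPM in Npy (log2 -1.77 ± 0.65, SE, limma adjusted p = 0.564). Snora31 and Snora5c were the members that stood above Npy in every Pomc library. Snora31 had 32.4, 60.0, 60.1 and 60.9 TPM in Pomc, against 19.1 and 18.4 TPM in Npy (log2 1.42 ± 0.34, SE, limma adjusted p = 0.215). Its host Tpt1, a highly expressed gene for a translationally controlled protein, did not share that pattern, with 1917 to 2083 TPM in Pomc, against 1897 and 2259 TPM in Npy. Snora5c had 17.6, 36.1, 23.5 and 19.1 TPM in Pomc, against 7.33 and 12.2 TPM in Npy (log2 1.202 ± 0.46, SE, limma adjusted p = 0.579).

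Much of the members' variation separated libraries and not the groups. Pomc replicate 1 alone had the lowest value in 48 of 111 tested members (43.2%), against 13.0% of all tested genes, and in 20 of 34 H/ACA box RNAs. Relative to each member's mean over the 6 libraries, the median log2(TPM + 1) of Pomc replicate 1 was -0.94 for the members. Over all tested genes the same median ran only between -0.10, in Npy replicate 2, and 0.10, in Pomc replicate 2. At the other end, Npy replicate 2 alone had the highest value in 44 members (39.6%, against 17.6% of all genes) and Pomc replicate 4 in 31 (27.9%, against 19.8%). For the small Cajal body RNAs the median deviation of Pomc replicate 1 was 0.06, and this library alone was lowest in 3 of the 9 (33.3%). Without Pomc replicate 1 the median log2 fold change of the members was -0.35, with 71 of 110 below 0, and their share differed by -2.90 percentage points in place of -3.28. Pomc replicate 1 also had the lowest sum of 7 nuclear-retained RNAs such as Malat1, 5277 TPM, while Pomc replicates 2 to 4 had 8639 to 16740 TPM and the Npy libraries 17544 and 9661 TPM. The part of nuclear RNA in the members' low values was not tested. The members also had more spread. This was seen in the 44 members whose mean log2(TPM + 1) was at least that of 50 TPM. Their median SD over the 4 Pomc libraries was 0.73 on the log2 scale, against 0.26 for all 4133 genes at that level. A match by TPM is not a match by reads, because TPM is scaled by length and the members have 64 to 423 bases. The part of read numbers in this spread was not tested.

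**Figure D4:**
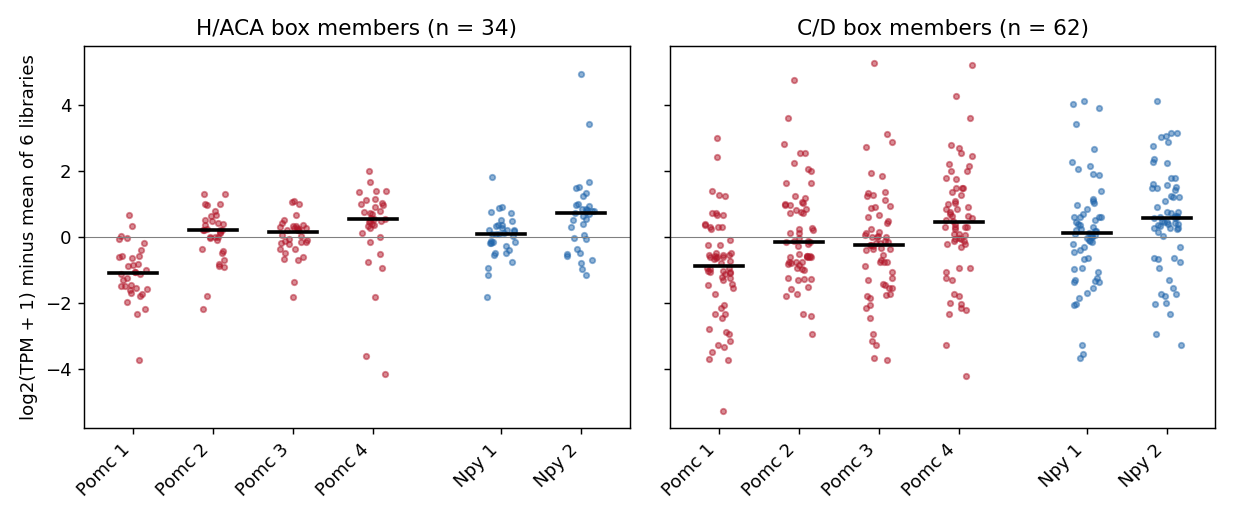
Log2(TPM + 1) minus the mean of the 6 libraries for each tested H/ACA box member (left) and C/D box member (right), in the Pomc libraries (red) and the Npy libraries to their right (blue). Black lines are medians, which are lowest in Pomc replicate 1 in both classes (-1.09 and -0.87) and highest in Npy replicate 2 (0.73 and 0.58).

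Of the 9 small Cajal body RNAs, 3 had both Npy libraries above every Pomc library (33.3%, against 7.86% of all tested genes). With so few members this percentage is coarse. Scarna10, known in human cells as U85, which guides modification of the U5 spliceosomal RNA, had 2077, 1919, 2607 and 2109 TPM in Pomc, against 3563 and 3913 TPM in Npy. Both groups were tight and did not overlap (log2 -0.79 ± 0.22, SE, limma adjusted p = 0.335). GENCODE gives Scarna10 325 bases and RefSeq 71, so its level relative to other members depends on the length that was used. Its host by position is Ncapd2, a condensin subunit used in cell division, with 30.4 to 41.3 TPM in Pomc, against 66.5 and 61.0 TPM in Npy (log2 -0.85, limma adjusted p = 0.414). Scarna13, in an intron of Snhg10, had 424, 318, 357 and 261 TPM in Pomc, against 538 and 666 TPM in Npy (log2 -0.84 ± 0.22, SE, limma adjusted p = 0.273). Scarna9, in an intron of Cep295 and known in human cells as a methylation guide for U2 spliceosomal RNA, had 28.8, 45.7, 38.2 and 91.8 TPM in Pomc, against 208 and 230 TPM in Npy. Every Npy value exceeded the highest Pomc value by more than the whole Pomc range (log2 -2.21 ± 0.40, SE, limma adjusted p = 0.0707). Without Pomc replicate 4, the highest of its group, it passed (limma adjusted p = 0.00923). It did not pass when any other single Pomc library was left out. Scarna2, another U2 guide in human cells, did not take part, with 1988, 1923, 1195 and 1017 TPM in Pomc, against 1246 and 2296 TPM in Npy (log2 -0.20 ± 0.35, SE, limma adjusted p = 0.925). Of the 5 others, Scarna3a, Scarna3b, Scarna6 and Scarna8 had log2 fold changes from -1.12 to -0.41 with overlapping groups. Scarna17 had 60.5, 88.2, 20.97 and 81.6 TPM in Pomc, against 27.9 and 26.5 TPM in Npy (log2 0.99, limma adjusted p = 0.768).

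The remaining classes had few members. Rnu11 and Rnu12 encode the U11 and U12 RNAs of the minor spliceosome, which removes a rare kind of intron. Rnu11 had 210, 491, 513 and 562 TPM in Pomc, against 469 and 731 TPM in Npy, and Pomc replicate 1 was the lowest library. Rnu12 had 55.1, 282, 104 and 119 TPM in Pomc, against 79.0 and 143 TPM in Npy, with groups that overlapped fully. Rnu6, the U6 RNA of the catalytic core of the spliceosome, was listed at 14.2 TPM in Pomc replicate 3 and at 0 in the other 5 libraries. The genome holds many U6 copies, so the level of 1 row cannot stand for U6. Rnu73b, in an intron of Rps3a1, stayed between 0 and 4.06 TPM in Pomc, against 6.95 and 2.90 TPM in Npy. Terc, the template RNA of telomerase, had 7.69, 20.3, 4.24 and 0 TPM in Pomc, against 4.56 and 33.7 TPM in Npy (log2 -1.31 ± 1.19, SE, limma adjusted p = 0.856).

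Members of the imprinted Prader-Willi region were low in both groups. Snord116, Snord116l1 and Snord116l2 carried identical values in all 6 libraries, at 1.98, 0.427, 0.425 and 1.96 TPM in Pomc, against 2.65 and 1.90 TPM in Npy. The annotated copies Snord116l1 (chr7:59894620-59894713, minus strand) and Snord116l2 (chr7:59876933-59877026, minus strand), both in introns of Snhg14, have 0 differences over 94 bases, and the shared sequence is shown because reads from it cannot be assigned to either copy. The capitals mark TGATGA and CTGA.
Snord116l1: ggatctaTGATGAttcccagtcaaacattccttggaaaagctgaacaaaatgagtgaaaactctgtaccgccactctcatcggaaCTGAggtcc
The 3 rows are therefore 1 measurement, and other copies of the cluster may add to it (log2 -0.66, limma adjusted p = 0.872). In the counts and medians of tested members above they still stand as 3 members, each below 0. Snord64 of the same region had 16.6, 2.09, 4.99 and 5.24 TPM in Pomc, against 1.79 and 23.8 TPM in Npy, so each group spanned nearly the range of the other.

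Host genes offered a comparison inside the same table. By annotation 109 members lie within a host gene on the same strand, 58 of them in introns and 51 overlapping an exon of some transcript. Both member and host were tested in 89 pairs with 68 different hosts. No host was called, and the median log2 fold change was 0.10 over the hosts, against -0.63 over the members within them. The member's log2 fold change was below that of its host in 64 of 89 pairs. Across pairs, which are not independent, Pearson r between member and host log2 fold changes was 0.07, and it was 0.15 in the 61 pairs whose member averaged at least 20 TPM. Low members are noisy, so a weak correlation here is no finding.

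Some members tracked their hosts across libraries. Snora24, picked after its values were seen, had 99.8, 95.2, 421 and 860 TPM in Pomc, against 563 and 670 TPM in Npy. Its host Snhg8 had 18.1, 21.8, 87.8 and 142 TPM in Pomc, against 93.4 and 129 TPM in Npy, with the same libraries low and high. Snora26, also picked later, had 102, 121, 230 and 380 TPM in Pomc, against 288 and 395 TPM in Npy, beside 13.9, 19.2, 32.3 and 48.0 TPM in Pomc, against 51.8 and 79.3 TPM in Npy, for its host Dancr. Both members overlap exons of their hosts, and how overlapping reads were counted is not stated, so their levels and those of the hosts cannot be told apart with certainty. Neither member passed the test (log2 -1.34 and -0.89, limma adjusted p = 0.792 and 0.768).

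**Figure D5:**
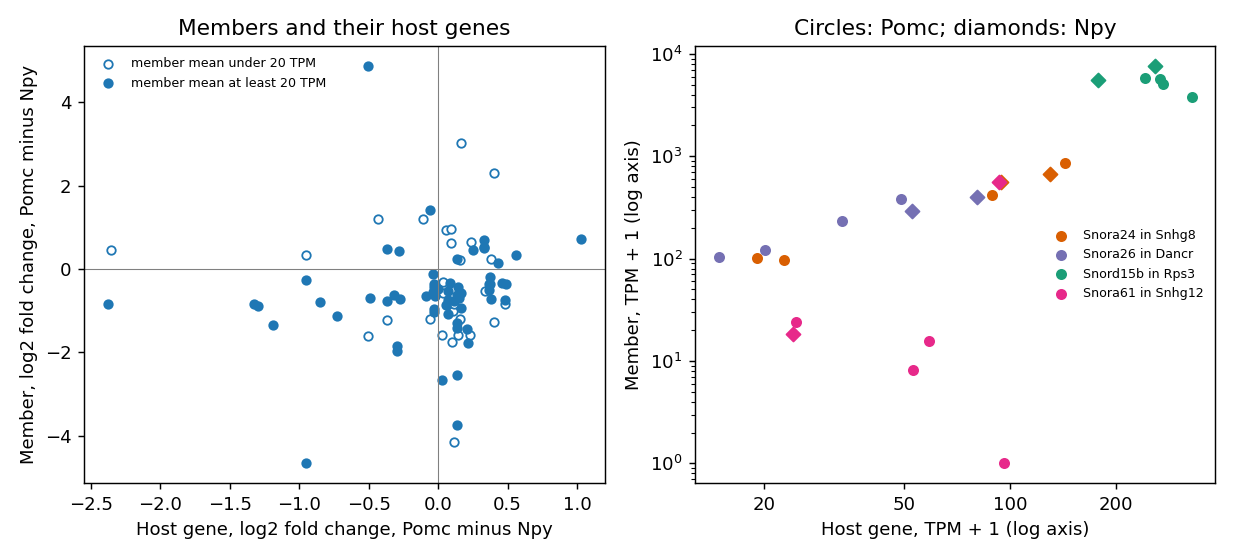
Left, log2 fold change (Pomc minus Npy) of each member against that of its host gene for 89 pairs, with open points for members under 20 TPM. Right, TPM + 1 on log axes of 4 members against their hosts in 4 Pomc libraries (circles) and 2 Npy libraries (diamonds), where Snora24 and Snora26 follow their hosts and Snora61 does not.

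Members that share a host did not always share a pattern. The members in Snhg12 differed from one another. Snora61 had 7.18, 23.2, 14.8 and 0 TPM in Pomc, against 17.3 and 554 TPM in Npy, a difference that rests on Npy replicate 2. Snora16a had 26.2, 52.9, 91.1 and 113 TPM in Pomc, against 110 and 252 TPM in Npy. Snora44 had 61.4, 61.5, 37.9 and 127 TPM in Pomc, against 80.2 and 37.5 TPM in Npy, and so was lowest in the library where Snora61 was highest. Snord99 was listed at 0 in Pomc replicates 1 and 3 and at 30.8 and 91.8 TPM in replicates 2 and 4, against 48.5 and 36.7 TPM in Npy. In Rpl13a, Snord33 (247, 316, 313 and 530 TPM in Pomc, against 343 and 554 TPM in Npy) was more abundant than its neighbours Snord32a (35.3 to 160 TPM in Pomc, against 96.5 and 81.2 TPM in Npy) and Snord34 (7.71 to 189 TPM in Pomc, against 57.3 and 198 TPM in Npy). Snord49a and Snord49b, which share the host of Snord65, had 2.47 to 46.6 TPM and 17.0 to 154 TPM in Pomc, against 2.65 and 26.5 TPM and 60.1 and 49.0 TPM in Npy. Neither repeated the Npy values of Snord65.

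Genes for proteins that carry the members, and genes of related machinery, were compared as listed groups. In the listed protein groups, 0 genes passed in either direction among 4 for C/D box particles (median log2 fold change 0.003, 2 below 0), 6 for H/ACA box particles (0.21, 2 below 0), 9 for Cajal bodies and the SMN complex (-0.18, 5 below 0) and 15 Sm and snRNP genes (-0.07, 8 below 0). The same held for 21 genes of snRNA and RNA polymerase III transcription (-0.02, 11 below 0), 13 of ribosomal RNA transcription (0.04, 5 below 0), 7 of 7SK and P-TEFb (0.16, 2 below 0), 2 for Y RNA and La proteins (0.59, 0 below 0) and 2 for telomerase (-0.29, 1 below 0). The 13 non-coding host genes listed had a median of -0.28 with 8 below 0, and none passed. A test that none of these genes passed does not show that the groups were alike.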

How the data were processed

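RNA was measured in 4 Pomc and 3 Npy samples. The deposited table gives no unit, and its values were taken as TPM because the columns used sum to 1000000. That sum does not by itself show scaling by gene length, and the shares weighted by exon length rest on this assumption. Per the submitters' processing notes, HISAT2, mm10 and edgeR 3.8 were named, without role or order. The counting, annotation and any gene length behind the deposited values are not stated in the labels or headers. GENCODE and RefSeq lengths lay within 20% of each other for 80 of 119 members (Scarna10 325 and 71 bases), so levels of different members are less certain than differences between libraries of 1 member. Read depth is unknown, and no counting interval was made.

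Log2(TPM + 1) values were compared, Pomc minus Npy, with limma 3.58.1 in R 4.3.3 (prior variance following mean expression) in genes with at least 1 TPM in 2 libraries, with Benjamini-Hochberg adjustment over 13845 genes. The 4 rows of 2 duplicated symbols were left out. Shares were compared by exact permutation in Python 3.11.15. The fit was checked on simulated data. Named members were the 10 highest by mean, up to 6 in each direction among non-overlapping members averaging at least 5 TPM, all members of the small classes and of the imprinted region, and those listed at 0 throughout. Others were added after their values were seen. Members, lists and tests were chosen with earlier results of these data known. Alternatives changed the pseudocount, filter, scaling, Npy columns, replicate block, prior and libraries.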

Additional observations from a re-analysis of the deposited data

Results flagged for a closer look

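In 7 of the 56 named members and shares examined the value of 1 Pomc library lay apart from the other 3 by Dixon's criterion for outlying values at the 95% level. Chance alone flags about 1 in 20 groups of values that vary continuously, which is no baseline here, since 5 of the 7 had 3 libraries at 0 and 1 above it and meet the criterion by that alone. Of these, Snord98, Snord14a and Snord95 were picked after their values were seen. Snord42b stood at 6.98 TPM in Pomc replicate 2 and at 0 in the others. Snord96a stood at 54.8 TPM in the same library, with 0 to 2.48 TPM in the others, and so did Snord95, at 49.4 TPM with 0 in the others. Snord96a and Snord95 lie in the same host, Rack1. Pomc replicate 3 held Rnu6 at 14.2 TPM, Snord98 at 194 TPM and Snord14a at 79.96 TPM, all with 0 in the other Pomc libraries. Snora31 was low in Pomc replicate 1, at 32.4 TPM, with 60.0 to 60.9 TPM in the others.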

How the results depend on the processing

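No member was called in the limma fit used, and small numbers were called under some alternatives. These were 1 with a pseudocount of 5 (Snord65), 4 with all 7 columns (Scarna13, Scarna9, Snord65 and Snora31) and 1 with a replicate block (Snora24). When a single Pomc library was left out, 0 to 2 were called. Over all genes 57 were called in the fit used, 64 with a pseudocount of 5, 205 with all 7 columns and 12 with the replicate block. The 17 members with an unadjusted p under 0.05 became 36 (30 higher in Npy) with the replicate block and 26 (20 higher in Npy) with all 7 columns. The share of all genes at that p was not computed for either fit. The median log2 fold change stayed below 0 under every alternative run, from -0.81 to -0.35. The difference in the members' share was -3.18 percentage points with all 7 columns (exact permutation p = 0.0286, with a column that is no measurement), and ran from -4.62 to -1.95 without single libraries. Without Rpph1 it ran from -1.82 to -0.61. Replicate numbers were not shown to pair the samples (correlations of -0.04 and -0.03 between same-numbered libraries), and with the replicate block the differences were -3.76 and, without Rpph1, -1.69. Direction reversed when 1 library was left out for 2 shares and 9 genes, none of them called. The lowest and highest values were -0.0288 and 0.00348 percentage points for the share of Rnu genes, -0.00256 and 0.00035 for the share of telomerase RNA, and, as log2 fold changes, -0.64 and 0.24 for Scarna2, -0.28 and 0.57 for Rnu12, -0.94 and 0.13 for Scarna3a, -2.64 and 0.00537 for Terc, -1.89 and 1.27 for Snord64, -0.29 and 0.79 for Snora44, -1.11 and 1.80 for Snord49a, -0.84 and 0.198 for Snord49b, and -0.18 and 0.0708 for Tpt1. With the block it reversed for Scarna2 (0.21) and Snord49b (1.03). The cause was not tested. Of 803 values of 54 single genes under alternatives, 774 kept direction and side of the threshold. A fit with 1 Npy library assumes that it varies like the others. TMM factors were computed without weights, and the difference of log2 shares was not run for telomerase RNA, listed at 0 in 1 library.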
